A study of Mus musculus with 41 samples.

Results

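The genes described here are the constant regions of the antibody heavy chains Ighm, Ighd, Igha, Ighg1, Ighg2b, Ighg2c and Ighg3, the constant region of the kappa light chain Igkc, and the joining chain Jchain. They were taken by symbol from the table of raw counts, in which Jchain carries its older name Igj and was matched by its gene identifier. All 9 of 43346 genes were found, and all 9 passed the filter on low counts that left 19292 genes for testing. RNA was sequenced from the tibial diaphyses of 41 female p16-INK-ATTAC mice on a C57BL/6 background, after the bones had been spun to remove marrow. The 12 young mice are labelled 6 to 12 months of age and as vehicle group, and received no AP20187 (AP). The study's methods give their age as 6 months, and the labels give 20 months for the old mice. The 13 old + vehicle-treated mice and the 16 old + AP-treated mice entered treatment at 20 months of age, with AP given at 10 mg/kg 2 times a week to the latter for 4 months, so that both were 24 months old at the end. All mice, the young ones included, carry the INK-ATTAC transgene, a drug-inducible caspase under a fragment of the p16Ink4a promoter, so that AP is meant to act on cells in which this promoter is active. There was no old group without the transgene that received AP. Mice of a group are separate animals, which are named below by the numbers in their labels. Old mice of both groups hold the numbers 1 to 29 and young mice 30 to 41, and the labels name no batch. A difference in handling along these numbers could not be told apart from age.

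A B cell first places IgM, and as it matures IgD, on its surface from a single primary transcript that reads through Ighm and Ighd. After activation, class switching replaces these by the constant region of an IgG, IgE or IgA gene further down the locus. Plasma cells, many of which live for long in the bone marrow, secrete the antibody in bulk, and the J chain links IgM and IgA into polymers. In all 3 groups the reads of a constant gene come from membrane and secreted forms together, and in bulk bone fewer B or plasma cells and less RNA per cell cannot be told apart.

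The heavy-chain genes lie on the minus strand of chromosome 12 of GRCm38, from Ighm at chr12:113418558-113422730 to Igha at chr12:113254830-113260236, with Ighd, Ighg3, Ighg1, Ighg2b and Ighg2c between them in this order. Igkc is at chr6:70726435-70726757 and Jchain at chr5:88520512-88527891. Since the 4 IgG genes are copies of one another, it matters whether reads can tell them apart. Their hinge, the flexible link between the arms and the stem of the antibody, differs between them and is shown for that reason. Each hinge is exon 2 of the GENCODE transcript, written 5′ to 3′ with the in-frame cysteine codons in capitals. Hinge cysteines can form bridges between antibody chains, and the number of codons is not a number of bridges between heavy chains.
Ighg1 (chr12:113329844-113329882): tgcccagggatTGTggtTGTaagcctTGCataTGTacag
Ighg2b (chr12:113307261-113307326): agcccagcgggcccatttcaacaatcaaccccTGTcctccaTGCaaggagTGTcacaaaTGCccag
Ighg2c (chr12:113288263-113288325): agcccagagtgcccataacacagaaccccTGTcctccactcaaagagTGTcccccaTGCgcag
Ighg3 (chr12:113360529-113360576): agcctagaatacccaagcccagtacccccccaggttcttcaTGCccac
The exons hold 4, 4, 3 and 1 cysteine codons over 39, 66, 63 and 48 bases. Over the whole secreted coding sequence, Ighg2b and Ighg2c were the most alike, with 85.6% identical positions, and the other IgG pairs shared 73.9% to 75.5%. Of all stretches of 50 bases in the Ighg2b transcripts, 4.15% also occurred in another IgG gene, against 5.49% for Ighg2c, 1.58% for Ighg3 and 0.393% for Ighg1. None of those of Ighm, Ighd, Igha, Igkc or Jchain was shared with another member. How reads that match more than one gene were counted is not given in the sources used here, so that a small part of the Ighg2b and Ighg2c counts is uncertain.

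IgM and IgA differ from IgG in a tail at the end of the secreted chain, to which the J chain binds through its cysteine. This tail is shown because Jchain is read against Ighm and Igha below. The bases are those of the secreted transcript that the membrane form lacks, up to and with the stop codon, with the cysteine codon in capitals.
Ighm (chr12:113420867-113420928): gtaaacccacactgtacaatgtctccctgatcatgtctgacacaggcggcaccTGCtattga
Igha (chr12:113258768-113258829): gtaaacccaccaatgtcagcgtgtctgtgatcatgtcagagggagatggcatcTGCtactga
Both tails are 62 bases long, while the 4 IgG genes have only 8 bases there, the stop codon included.

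The libraries held 37028959 to 75942717 counts each. The members together took 0.113% to 0.422% of the counts in young mice, 0.108% to 1.34% in old + vehicle-treated mice and 0.199% to 1.37% in old + AP-treated mice. The lowest single count of any member was 24, for Ighg3 in one mouse, so that counting error is small beside the differences between mice for nearly all values. The tissue label was met, with the bone genes Col1a1 and Sost at a mean of 25342 and 190.9 CPM (counts per 1000000 counts of scaled library size) in young mice. Markers of marrow cells were present as well: S100a8, a neutrophil gene, averaged 1775 CPM in young mice, and Ms4a1, a B-cell gene, 27.1 CPM.

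Antibody genes were higher in old than in young bone, and the difference was carried by IgM, 3 of the 4 IgG classes and the kappa chain. In old + vehicle-treated against young mice, 6 of the 9 members passed the thresholds, an adjusted p below 0.05 and a log2 fold change beyond 0.5 in edgeR's quasi-likelihood test, against 9.06% of all genes. Of these 6, 5 were higher (4.3% of all genes) and Ighd was lower (4.76% of all genes). In old + AP-treated against young mice 5 of 9 passed, against 8.58% of all genes. All 5 were higher (3.73% of all genes) and none was lower (4.85%). Between the old groups none of the 9 did, against 0.0726% of all genes (0.0259% higher and 0.0467% lower). Both comparisons with young mice use the same 12 animals, and the vehicle-treated mice enter 2 comparisons, so that the sets of values are not independent of each other. The median log2 fold change of the members was 1.13 for old + vehicle-treated against young mice and 1.43 for old + AP-treated against young mice, beside 0.0066 and 0.017 over all genes.

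**Figure D1:**
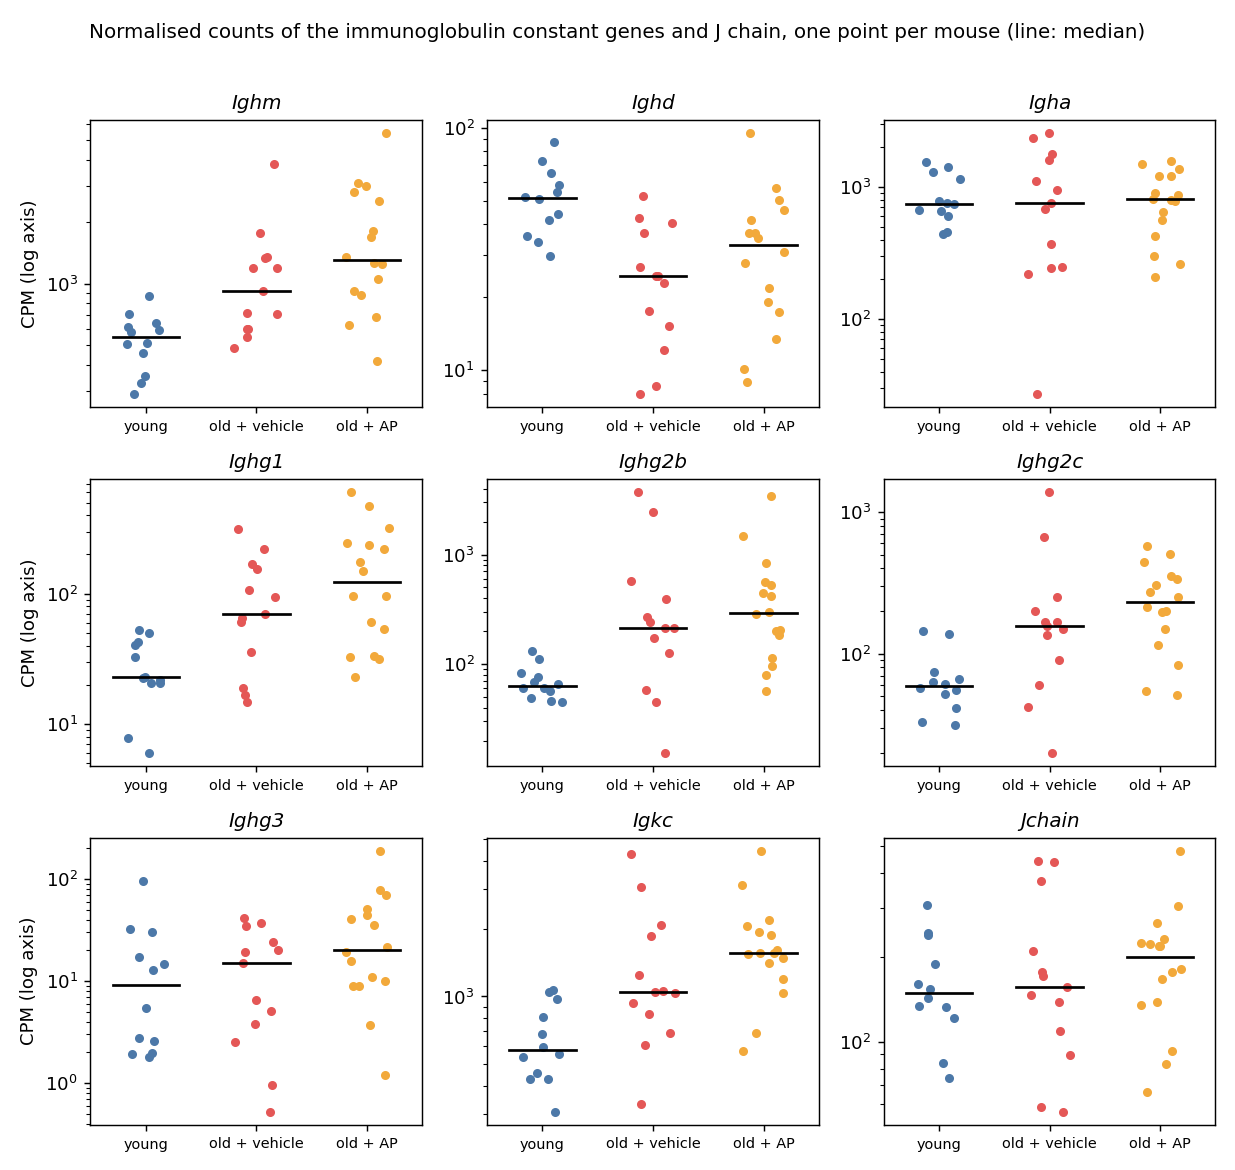
Normalised counts (CPM, log axis) of the 9 members, with one point per mouse and a line at the median of each group (12 young mice, 13 old mice given vehicle, 16 old mice given AP). The medians of Ighm rise from 546 to 916 and 1299 CPM, those of Igha stay between 748 and 805 CPM, and single old mice lie far above or below their group in most panels.

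Ighm encodes the heavy chain of IgM, the first class a B cell makes. It ranged from 289 to 866 CPM in young mice, with a median of 546. The range was 487 to 3834 CPM with a median of 916 in old + vehicle-treated mice, and 420 to 5406 CPM with a median of 1299 in old + AP-treated mice. The groups overlapped, with 7 of 13 vehicle-treated and 13 of 16 AP-treated mice above the highest young mouse. Ighm rose by a log2 fold change of 1.13 (SE 0.33, adjusted p = 0.0134) in old + vehicle-treated and of 1.74 (SE 0.33, adjusted p = 0.000291) in old + AP-treated mice. With vehicle-treated mouse 23 left out, the first stood at 0.82 and just missed the threshold (adjusted p = 0.0534).

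Ighd, which marks naive mature B cells, went the other way. Young mice lay between 29.7 and 87.6 CPM with a median of 51.3, old + vehicle-treated mice between 7.95 and 52.4 CPM with a median of 24.4, and old + AP-treated mice between 8.94 and 95.1 CPM with a median of 32.9. In 9 of 13 vehicle-treated and 7 of 16 AP-treated mice Ighd was below the lowest young mouse. It fell by 1.03 on the log2 scale (SE 0.30, adjusted p = 0.0131) in old + vehicle-treated mice. In old + AP-treated mice the log2 fold change was -0.61 (SE 0.28, adjusted p = 0.130), and without old + AP-treated mouse 25, the highest of that group, it was -0.80 (adjusted p = 0.0373). Ighm and Ighd share a promoter and a primary transcript, and their counts can be set against each other within a mouse. The ratio of Ighm to Ighd counts had a median of 9.74 in young mice (range 6.83 to 18.9), 37.5 in old + vehicle-treated mice (14.1 to 482) and 45.7 in old + AP-treated mice (11.1 to 533).

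Of the IgG genes, Ighg1, Ighg2b and Ighg2c had larger fitted rises in both old groups than any other member. Ighg2b, the heavy chain of IgG2b, lay between 45.3 and 131 CPM in young mice (median 63.3). It lay between 15.4 and 3730 CPM in old + vehicle-treated mice (median 215) and between 56.6 and 3441 CPM in old + AP-treated mice (median 290). Most old mice were above all young mice, 9 of 13 and 12 of 16, while 2 vehicle-treated mice were below all of them. The log2 fold changes were 3.20 (SE 0.69, adjusted p = 0.000978) and 3.02 (SE 0.67, adjusted p = 0.00169). As folds of the fitted means these were 9.19 and 8.10, while the medians differed 3.40-fold and 4.59-fold. Without old + vehicle-treated mouse 13 the first was 2.48 and without old + AP-treated mouse 19 the second was 2.44, both still past the thresholds. limma-voom, which works on log counts and gives less weight to variable mice, put them at 2.07 (adjusted p = 0.00383) and 1.87 (adjusted p = 0.00698), folds of 4.20 and 3.66.

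Ighg2c, the C57BL/6 form of the IgG2a class, had medians of 59.1 CPM in young mice, 158 CPM in old + vehicle-treated mice and 233 CPM in old + AP-treated mice. Its ranges were 31.4 to 143, 19.8 to 1389 and 51.3 to 574 CPM, with 8 of 13 and 12 of 16 old mice above all young mice. It rose by 1.99 (SE 0.47, adjusted p = 0.00246) and 1.92 (SE 0.46, adjusted p = 0.00326) on the log2 scale, the first being 1.37 (adjusted p = 0.0144) with vehicle-treated mouse 13 left out. Ighg1, the heavy chain of IgG1, had medians of 22.9, 69.7 and 123 CPM and ranges of 6.00 to 52.4, 14.8 to 313 and 22.98 to 604 CPM. All 16 AP-treated mice were above the young median, and 12 of them above all young mice. Ighg1 rose by 1.86 (SE 0.51, adjusted p = 0.00792) and 2.65 (SE 0.51, adjusted p = 0.000398), the latter being 1.60 in limma-voom (adjusted p = 0.00905).

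Ighg3, the first IgG gene after Ighd in the locus, had the lowest median CPM of the IgG genes in each group and varied most among young mice. It lay between 1.82 and 94.9 CPM in young mice (median 9.24), between 0.524 and 41.7 CPM in old + vehicle-treated mice (median 15.1) and between 1.21 and 190 CPM in old + AP-treated mice (median 20.3). The groups overlapped over most of their range. The log2 fold changes were -0.17 (95% interval -1.53 to 1.19, adjusted p = 0.892) and 1.06 (-0.27 to 2.38, adjusted p = 0.266). One young mouse, number 38, held the highest young value, and without it they were 0.52 (adjusted p = 0.641) and 1.75 (adjusted p = 0.0641). The Ighg3 row of the deposited table covers the secreted transcript but not the membrane exons of the later GENCODE annotation, in contrast to the other IgG genes.

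Igha, the heavy chain of IgA, did not pass the test in any comparison. Its medians were 748, 761 and 805 CPM, but the spread differed: 437 to 1547 CPM in young mice, 26.9 to 2563 CPM in old + vehicle-treated mice and 208 to 1573 CPM in old + AP-treated mice. In the vehicle group 4 mice lay above and 5 below all young mice. The log2 fold changes against young mice were 0.18 (95% interval -0.65 to 1.002, adjusted p = 0.809) and -0.06 (-0.85 to 0.72, adjusted p = 0.933). These intervals leave room for a sizeable change in either direction.

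Igkc, the constant region of the kappa light chain that most mouse antibodies carry, lay between 307 and 1064 CPM in young mice (median 576). It lay between 333 and 4291 CPM in old + vehicle-treated mice (median 1047) and between 572 and 4458 CPM in old + AP-treated mice (median 1558). Of the old mice, 5 of 13 and 13 of 16 were above all young mice. Igkc rose by 1.16 (SE 0.31, adjusted p = 0.00700) and 1.43 (SE 0.30, adjusted p = 0.00111) on the log2 scale. Jchain, in contrast, had medians of 149, 157 and 200 CPM and ranges of 74.2 to 308, 56.2 to 442 and 66.2 to 480 CPM, so that most old mice lay within the young range. Its log2 fold changes were 0.26 (95% interval -0.35 to 0.86, adjusted p = 0.601) and 0.28 (-0.30 to 0.86, adjusted p = 0.535).

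**Figure D2:**
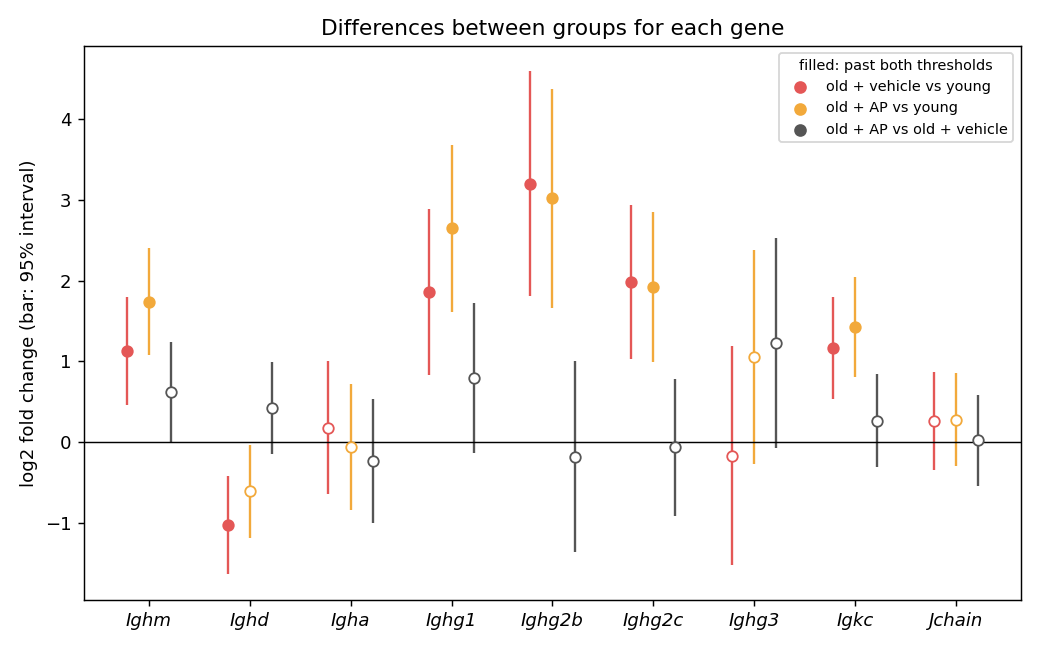
Log2 fold change of each member in the 3 comparisons, with 95% intervals from the edgeR fit, and filled points for members past both thresholds. Ighm, Ighg1, Ighg2b, Ighg2c and Igkc are filled and above 0 in both comparisons with young mice, Ighd is filled and below 0 only for old + vehicle-treated mice, and all points between the old groups are open.

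Clearance of p16Ink4a-expressing cells by AP was addressed by comparing the old groups. No member passed the thresholds, and none had an unadjusted p below 0.05 in edgeR. DESeq2 called none either. Ighm came closest, with a log2 fold change of 0.61 (95% interval -0.01 to 1.23, unadjusted p = 0.0522, adjusted p = 0.213), and 12 of 16 AP-treated mice were above the vehicle median. Ighg1 was at 0.79 (-0.14 to 1.72, adjusted p = 0.289), but at 0.03 in limma-voom and at 0.36 without the 4 old mice named further on, and Ighg3 at 1.23 (-0.07 to 2.53, adjusted p = 0.234). For Igkc the value was 0.27 (-0.31 to 0.85, adjusted p = 0.573) and for Ighd 0.42 (-0.15 to 0.99, adjusted p = 0.358). Ighg2b, at -0.18, had an interval from -1.36 to 0.998, Ighg2c, at -0.07, one from -0.92 to 0.78, and Igha, at -0.24, one from -1.01 to 0.53. Jchain was bounded most closely, at 0.02 with an interval from -0.54 to 0.59. The Ighm value fell to 0.38 without old + AP-treated mouse 18 and was 0.92 without old + vehicle-treated mouse 23.

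Levels of different genes were compared per kilobase of the gene length given with the counts. In young mice the order of the median levels was Igkc (1782 CPM per kilobase), Ighm (290), Igha (280), Jchain (81.9), Ighg2c (44.6), Ighd (27.004), Ighg2b (23.6), Ighg1 (8.84) and Ighg3 (8.54). Ighm and Igha covered much the same range, 153 to 459 and 164 to 580 CPM per kilobase, as did Ighd and Ighg2b, at 15.6 to 46.1 and 16.9 to 49.1. Ighg1 and Ighg3 also overlapped. In old mice Ighd moved down the order, to a median of 12.8 CPM per kilobase in vehicle-treated and 17.3 in AP-treated mice, the lowest of the 9 in both groups, next to Ighg3 at 13.996 and 18.7 and well within its range. The length of Igkc in the table, 323 bases, leaves out part of the 3′ end in the later annotation, and its level per kilobase is tied to that length.

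By their medians, old mice had a smaller share of IgA and a larger share of IgG among their heavy chains, given here as the share of each class in the summed heavy-chain constant counts of a mouse, with no test since the shares follow from the same counts. Igha made up a median of 53.4% in young mice (37.9% to 61.1%), 29.3% in old + vehicle-treated mice (0.687% to 58.8%) and 26.1% in old + AP-treated mice (6.16% to 48.9%). The Ighm share had medians of 34.3%, 38.9% and 41.8%. The 4 IgG genes together had medians of 11.4%, 20.3% and 20.1%, and Ighd of 3.02%, 0.791% and 1.002%. Igha was the leading class in 11 of 12 young mice but in 3 of 13 and 3 of 16 old mice. Ighm led in 1 young mouse, in 8 vehicle-treated and in 11 AP-treated old mice, and Ighg2b in 2 mice of each old group and in no young mouse. Counted per kilobase, which lowers the weight of the long Igha gene, its median share in young mice was 44.1%. Igha then led in 8 young, 2 vehicle-treated and 0 AP-treated mice, and Ighm in 4, 9 and 15.

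**Figure D3:**
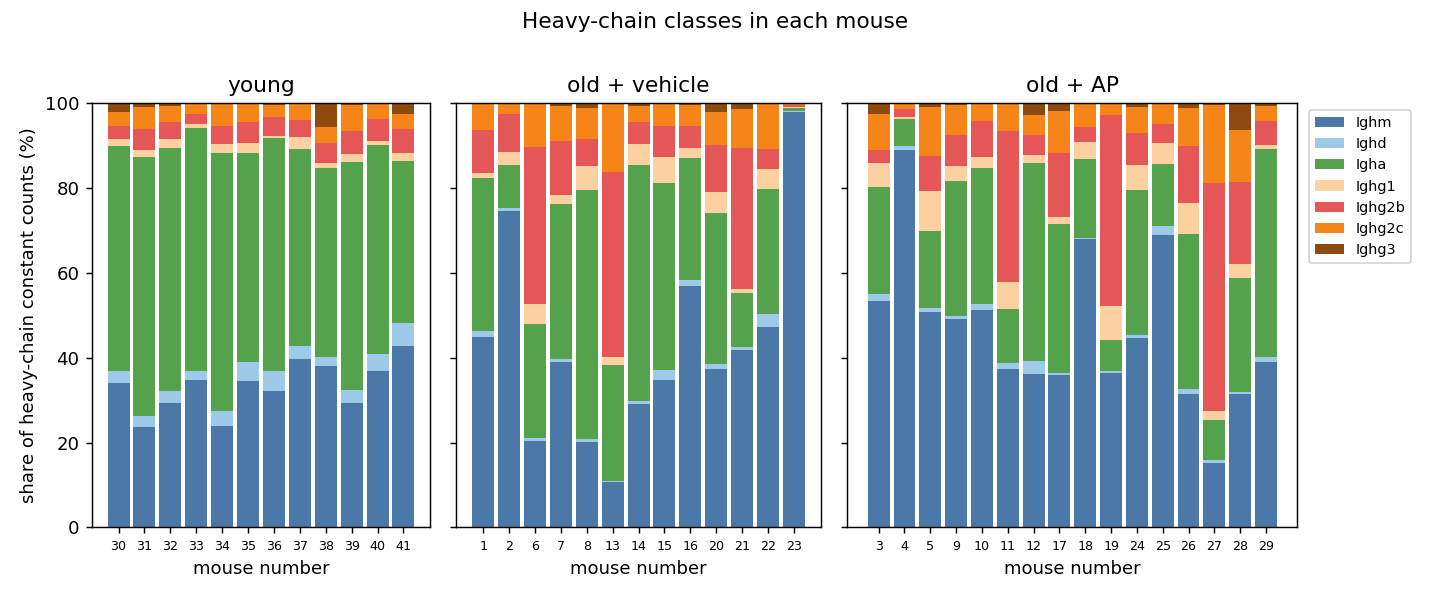
Share of each heavy-chain class in the summed heavy-chain constant counts (percent), with one bar per mouse, ordered by mouse number within each group. Young mice resemble each other, with Igha and Ighm filling most of each bar, while single old mice are filled by Ighm (97.8% in vehicle-treated mouse 23) or by the IgG genes (74.7% in AP-treated mouse 27).

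The share of Ighm ran from 23.8% to 42.8% in young mice, while old + vehicle-treated mice spanned 10.7% to 97.8% and old + AP-treated mice 15.2% to 88.8%. Old + vehicle-treated mouse 23 had the highest Ighm (3834 CPM) and the lowest Igha (26.9 CPM), Ighd, Ighg1, Ighg2b (15.4 CPM), Ighg2c and Ighg3 of its group. Its Igkc, 1857 CPM, was above the group's median. Old + AP-treated mouse 4 had a similar make-up, with 88.8% Ighm, and the lowest Igha, Ighg1, Ighg2b, Ighg2c and Ighg3 of its group.

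The mice led by Ighg2b were vehicle-treated mice 6 and 13 and AP-treated mice 19 and 27. In these the IgG genes made up 52.2%, 61.7%, 55.8% and 74.7% of the heavy-chain counts, and Ighg2b alone held 70.3% to 80.7% of the IgG counts. The highest young share of IgG was 15.3%, in mouse 38, which owed it to Ighg3. The coefficient of variation of Ighg2b was 36.95% in young mice, 172% in old + vehicle-treated and 146% in old + AP-treated mice, and that of Ighm 30.99%, 75.8% and 72.0%. Ighg3 was the exception, at 145%, 89.5% and 123%, and its share of the heavy-chain counts ran from 0.0714% to 5.63% among young mice. When the mice with the highest Ighm or Ighg2b of each old group (vehicle-treated mice 23 and 13, AP-treated mice 18 and 19) were left out together, a choice made after their values were seen, the same 6 and 5 members passed against young mice and again none between the old groups. In that fit Ighm was at 0.83 (adjusted p = 0.0313) and Ighg2b at 2.62 (adjusted p = 0.000855) in old + vehicle-treated mice.

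The kappa light chain was read against the heavy chains within each mouse. Igkc counts per heavy-chain count had a median of 0.395 in young mice (0.345 to 0.433), 0.455 in old + vehicle-treated mice (0.376 to 0.499) and 0.457 in old + AP-treated mice (0.379 to 0.659). Iglc2, the lambda light chain gene measured alongside, did not pass the test in old + vehicle-treated mice (log2 fold change 0.32, adjusted p = 0.542) or in old + AP-treated mice (0.03). Summed with the rare Ighe, Iglc2 had a lower median in vehicle-treated mice, 13.9 CPM against 21.3 CPM in young mice, so that the positive value owes much to mouse 6. Iglc2 counts per 100 Igkc counts had medians of 3.37, 1.49 and 1.51, and vehicle-treated mouse 6 alone reached 5.03, above all young mice, with 154.8 CPM of Iglc2. Ighe, the IgE heavy chain, was rare: its mean was 0.167 CPM in young, 1.09 CPM in old + vehicle-treated and 0.793 CPM in old + AP-treated mice. It rose by 2.69 (adjusted p = 0.0136) and 2.23 (adjusted p = 0.0377) on the log2 scale, with single mice at 8.49 and 5.90 CPM. Without the highest mouse of each group, vehicle-treated mouse 6 and AP-treated mouse 19, these were 1.49 (adjusted p = 0.130) and 1.41 (adjusted p = 0.168), and it was called in 24 of 25 and 18 of 28 fits with a mouse left out.

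Jchain was read against the classes that carry the tail shown above. Per count of Ighm and Igha together, Jchain counts had a median of 0.116 in young mice (0.0861 to 0.143), 0.0801 in old + vehicle-treated mice (0.0380 to 0.135) and 0.0766 in old + AP-treated mice (0.0551 to 0.108). The lowest ratio in each old group was in the mice with the highest Ighm shares, 23 and 4. Across mice within each group, Jchain was compared with each of the other 8 members on log2 CPM, 24 relations in all, with 100000 permutations and Benjamini-Hochberg adjustment. In young mice Jchain went with Igha (r = 0.967, rho = 0.944) and with Igkc (r = 0.957, rho = 0.951). The permutation p for r was 1e-05, the smallest the permutations can give, in both cases (adjusted p = 0.00012), and p for rho was 4e-05 for Igha and 3e-05 for Igkc. Without the 2 mice farthest from the median of Jchain, r was 0.953 and 0.926.

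With Igkc, r was 0.873 in old + vehicle-treated mice (rho = 0.835, permutation p = 0.00021 and 0.00066, adjusted p = 0.00126 and 0.00396) and 0.820 without the 2 farthest mice. In old + AP-treated mice it was r = 0.654 (rho = 0.647, permutation p = 0.00583 and 0.00851, adjusted p = 0.0175 and 0.0204) and 0.729 without them. With Igha, r was 0.646 in vehicle-treated mice (rho = 0.852, permutation p = 0.0158 and 0.00035, adjusted p = 0.0379 and 0.0028) and 0.685 in AP-treated mice (rho = 0.629, permutation p = 0.00339 and 0.0105, adjusted p = 0.0116 and 0.0229). Without the 2 farthest mice these fell to 0.489 and 0.538. Ighm and Jchain gave r = 0.698 in young mice (rho = 0.797, permutation p = 0.0124 and 0.00291, adjusted p = 0.0331 and 0.0133). They gave r = 0.353 in vehicle-treated mice (rho = 0.335, permutation p = 0.235 and 0.262) and 0.803 in AP-treated mice (rho = 0.682, permutation p = 0.00011 and 0.00479, adjusted p = 0.00088 and 0.0138). Without the 2 farthest mice the last was 0.617. Jchain also went with IgG genes. In young mice r was 0.827 with Ighg2c (rho = 0.769, permutation p = 0.00123 and 0.00517, adjusted p = 0.00492 and 0.0138) and 0.644 with Ighg2b (rho = 0.545, permutation p = 0.0235 and 0.0717, adjusted p = 0.047 and 0.123). Without the 2 farthest mice these were 0.689 and 0.415. In old + vehicle-treated mice r was 0.799 with Ighg1 (rho = 0.764, permutation p = 0.00114 and 0.00332, adjusted p = 0.00492 and 0.0133) and 0.628 with Ighg2c (rho = 0.758, permutation p = 0.0207 and 0.00387, adjusted p = 0.0452 and 0.0133), and without the 2 farthest mice 0.746 and 0.530. For r, the remaining relations had adjusted p-values of 0.0543 or more. That lowest value was for Ighg1 in young mice (r = 0.626, rho = 0.650, permutation p = 0.0294 and 0.0249), where the adjusted p for rho was 0.0498 and r was 0.353 without the 2 farthest mice. Whether r differed between groups was not tested.

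The genes most like each member over all 41 mice, after the group means had been subtracted, are given as a description by Spearman's rho; all points share the library and its depth. Ighd was closest to Fcer2a (0.934), the low-affinity IgE receptor of follicular B cells, to Cr2 (0.909), a complement receptor of mature B cells, and to H2-Ob (0.905), a class II chaperone of B cells. Igkc was closest to the plasma-cell chaperone Mzb1 (0.861), to Tnfrsf13b (0.852), a receptor for B-cell survival factors, and to Derl3 (0.842), which takes part in degrading misfolded secretory proteins. Jchain was closest to Mzb1 (0.880), E130215H24Rik (0.798) and Tnfrsf17 (0.789), the plasma-cell receptor BCMA. Igha was closest to Jchain (0.791), followed by E130215H24Rik (0.656) and Cnp (0.624).

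Ighm was closest to Cklf (0.816), Aim2 (0.815) and Fnbp1 (0.812), and Ighg1 to Itpr2 (0.730), Jchain (0.680) and Dgkd (0.654). Ighg2b was closest to Slpi (0.768), Cyp2b10 (0.759) and Mir7678 (0.660). Slpi, a secreted protease inhibitor, also led for Ighg2c (0.653), before Hmgb3 (0.625) and Pspc1 (0.596). For Ighg3 the values were lower still, with Akr1c19 at 0.556, 2810029C07Rik at 0.552 and Ahrr at 0.532. Among the members themselves, Ighm and Ighd gave a rho of only 0.181, and Ighm and Igkc one of 0.720.

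Genes of plasma cells other than the antibody genes mostly did not pass the test. Of 20 plasma cell genes tested, 1 rose and none fell in each comparison with young mice, and their median log2 fold change was -0.004 for old + vehicle-treated and 0.05 for old + AP-treated mice. With a mouse left out, 0 to 1 were called higher and 0 to 2 lower in old + vehicle-treated mice. The genes called lower in such fits were Tent5c (-0.62, adjusted p = 0.0574 with all mice), without any one of mice 6, 13, 36 and 40, and Pou2af1 (-0.61, adjusted p = 0.0672 with all mice), without any one of mice 6, 14 and 31. The gene that rose with all mice was Derl3, which rose by 0.89 (adjusted p = 0.0226) and 1.13 (adjusted p = 0.00390), the former being 0.71 (adjusted p = 0.0613) without vehicle-treated mouse 13. Prdm1, the transcription factor that sets the plasma cell program, was at -0.09 (adjusted p = 0.745) and -0.20 (adjusted p = 0.391). Xbp1, which expands the secretory machinery, was at 0.22 in both, with an adjusted p of 0.00674 and 0.00457 but below the fold threshold. Mzb1 was at 0.43 (adjusted p = 0.215) and 0.54 (adjusted p = 0.0913). Several of these genes are used by other cells of bone too, so that their values, those of Tent5c and Pou2af1 included, are not specific to plasma cells. The summed level of the list was 1397 to 1828 CPM in young, 1155 to 1904 CPM in old + vehicle-treated and 1308 to 2302 CPM in old + AP-treated mice.

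Genes of mature B cells were lower in old + vehicle-treated mice, as Ighd was. Of 16 tested, 11 fell (4.76% of all genes) and none rose (4.3%), with a median log2 fold change of -0.94. Cr2 fell by 1.63 (adjusted p = 0.00115) and Fcer2a by 1.61 (adjusted p = 0.00180) on the log2 scale, Spib, a transcription factor of B cells, by 1.22 (adjusted p = 0.00104), and Ms4a1, which encodes CD20, by 1.12 (adjusted p = 0.00298). In old + AP-treated mice 3 of the 16 fell, Cr2 (-1.56, adjusted p = 0.00114), Fcer2a (-1.39, adjusted p = 0.00445) and Pax5 (-0.79, adjusted p = 0.0474), the regulator of B cell identity, and the median of the list was -0.46. With single mice left out, the number that fell was 11 to 12 in old + vehicle-treated and 2 to 5 in old + AP-treated mice, and Pax5 passed in 11 of 28 such fits. Ms4a1 was at -0.65 there (adjusted p = 0.0714). The summed level of the list overlapped between groups, at 782 to 1624, 582 to 1624 and 711 to 1306 CPM, a sum that includes Cd74, which other antigen-presenting cells express too.

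**Figure D4:**
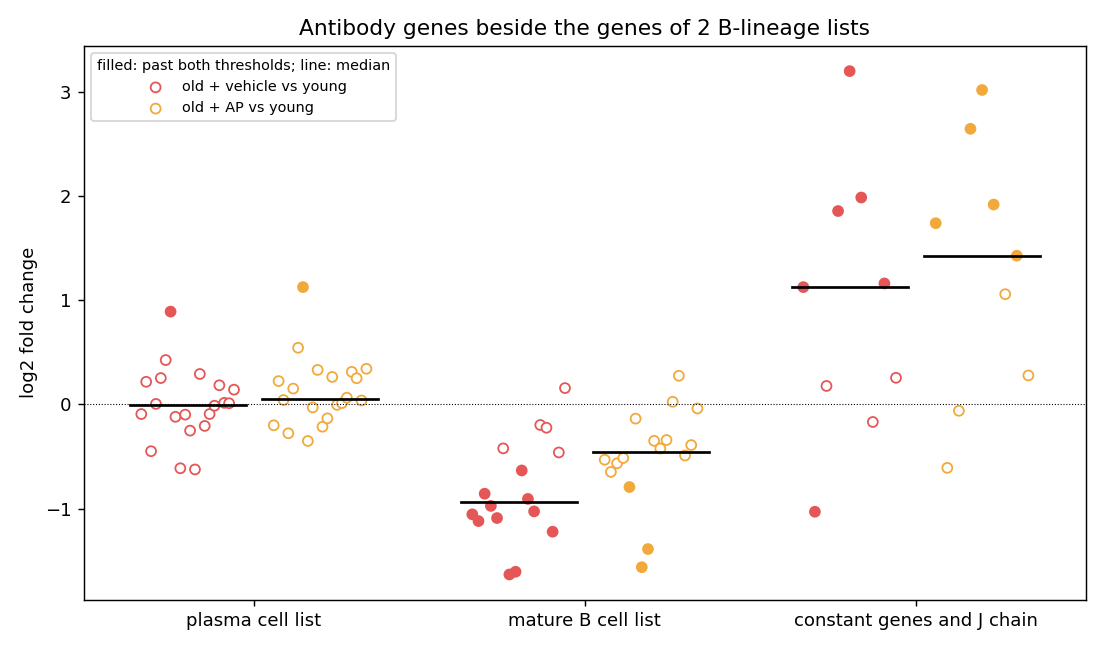
Log2 fold changes against young mice of 20 plasma cell genes, 16 mature B cell genes and the 9 members, with one point per gene, a line at the median and filled points past both thresholds. The members have medians of 1.13 and 1.43, the plasma cell genes lie around 0 with only Derl3 filled, and the mature B cell genes lie mostly below 0.

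Among 10 genes of B cell precursors, 3 fell in old + vehicle-treated mice: Rag1 (-1.75, adjusted p = 0.00724) and Rag2 (-1.26, adjusted p = 0.0302; called in 23 of 25 fits with a mouse left out), the recombinase that joins antibody gene segments, and Vpreb3 (-1.23, adjusted p = 0.0247). The surrogate light chain genes Vpreb1 (-0.47, adjusted p = 0.445) and Vpreb2 (-0.47, adjusted p = 0.501) did not pass. In old + AP-treated mice none fell and Bst1 rose (0.57, adjusted p = 0.0277; 0.46 and adjusted p = 0.0648 without AP-treated mouse 19), with Vpreb1 at -0.13 and Vpreb2 at -0.12. Of 12 genes for class switching and its signals that could be tested, Il21, a T-cell signal for plasma cell formation, rose, by 1.77 (adjusted p = 0.0261) and 2.15 (adjusted p = 0.00570), at a mean of only 0.0574 CPM in young mice and 0.205 and 0.272 CPM in the old groups. With a mouse left out, 1 to 2 genes of this list were called higher in each comparison with young mice. Over all genes, 4.3% were called higher and 4.76% lower in old + vehicle-treated mice, and 3.73% and 4.85% in old + AP-treated mice. The uracil glycosylase Ung was at 0.15 (adjusted p = 0.366) and 0.23 (adjusted p = 0.124).

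Of 11 survival signals of plasma cells, the niche chemokine Cxcl12 fell in both old groups, by 0.61 on the log2 scale each (adjusted p = 0.00165 and 0.00123). Its mean was 1704 CPM in young mice and 1114 CPM in each old group. Tnfrsf13c, the BAFF receptor of mature B cells, fell in old + vehicle-treated mice (-0.88, adjusted p = 0.00424), and the cytokine Il6 was called there (1.52, adjusted p = 0.0230), but stood at 0.51 (adjusted p = 0.346) without mouse 16. Cd28, a co-stimulatory receptor of T cells and plasma cells, rose in old + AP-treated mice (0.75, adjusted p = 0.00943), and was at 0.49, short of the fold threshold, without mouse 18. Itga4, an integrin subunit, was at -0.49 in old + vehicle-treated mice (adjusted p = 0.0282), short of the fold threshold, and was called lower there in 10 of 25 fits with a mouse left out. In such fits 0 to 1 gene of the list was called higher and 2 to 3 lower in old + vehicle-treated mice, and 0 to 1 higher and 1 to 2 lower in old + AP-treated mice. With all mice these were 1 and 2 in the former and 1 and 1 in the latter, against 9.06% and 8.58% of all genes in either direction. The ligands APRIL (Tnfsf13) and BAFF (Tnfsf13b) did not pass, at 0.18 (adjusted p = 0.290) and 0.15 (adjusted p = 0.552) in old + vehicle-treated and 0.27 (adjusted p = 0.0759) and 0.36 (adjusted p = 0.0955) in old + AP-treated mice.

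Among 10 receptors and carriers of antibodies that could be tested, Fcgr4, an activating receptor for IgG2, rose by 1.73 (adjusted p = 0.0423) and 2.21 (adjusted p = 0.0103). Its values ran from 8.74 to 20.1 CPM in young mice, and up to 256 and 562 CPM in single old mice. The first was called in 11 of 25 fits with a mouse left out, and was lowest, at 0.97 (adjusted p = 0.235), without vehicle-treated mouse 8. The second was called in 27 of 28 and was 1.04 (adjusted p = 0.101) without AP-treated mouse 24. Fcgr1, the high-affinity IgG receptor, rose in old + AP-treated mice (0.64, adjusted p = 0.00449). In old + vehicle-treated mice Fcgr1 was at 0.46 (adjusted p = 0.0453), short of the fold threshold, and was called higher in 3 of 25 fits with a mouse left out. Fcgrt, which protects IgG from breakdown, was at -0.26 (adjusted p = 0.157) and -0.49 (adjusted p = 0.00424), the latter short of the fold threshold but called lower in 9 of 28 fits with a mouse left out. In such fits 0 to 2 genes of this list were called higher in old + vehicle-treated mice, and 1 to 2 higher and 0 to 1 lower in old + AP-treated mice. With all mice 1 and 2 of the 10 were called higher and none lower, against 4.3% and 3.73% of all genes called higher. Pigr and Fcamr did not pass the filter on low counts. Between the old groups no gene of any of these lists passed the thresholds in the fit of all mice. With a mouse left out, 0 to 2 B cell precursor genes and 0 to 1 survival gene were called higher in old + AP-treated than in old + vehicle-treated mice. The precursor genes were Rag1 and Il7r, without AP-treated mouse 9, at 1.41 (adjusted p = 0.0472) and 0.83 (adjusted p = 0.0465). With all mice Rag1 was at 1.38 (adjusted p = 0.0782) and Rag2 at 1.13 (adjusted p = 0.0974). Itga4 was at 0.59 (adjusted p = 0.0536) with all mice and was called without any one of mice 2, 9, 10, 14, 20, 26 and 27.

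Some markers of other cells differed between old and young mice as well, and their part in the differences of the antibody genes was not tested. The counts here and in the next paragraph stand beside 9.06% of all genes called in old + vehicle-treated and 8.58% in old + AP-treated against young mice. In old + vehicle-treated mice the T cell, neutrophil, macrophage and skeletal muscle counts were near or below that share. Of 10 T cell genes 5 were called higher in old + AP-treated against young mice and none in old + vehicle-treated mice, against 2 to 6 and 0 to 1 with a mouse left out. Without AP-treated mouse 18 the number was 2, with Cd8b1 at 0.0075 (adjusted p = 0.992) in place of 1.71 (adjusted p = 0.0370) and Cd3e at 0.55 (adjusted p = 0.0715) in place of 1.12 (adjusted p = 0.0146). Their summed level was 41.6 to 84.3 CPM in young, 38.2 to 149 CPM in old + vehicle-treated and 37.95 to 651 CPM in old + AP-treated mice, where the highest value and the highest Ighm were both in mouse 18. Of 9 neutrophil genes 3 rose in old + AP-treated mice (7966 to 19170, 4848 to 25346 and 8802 to 33768 CPM summed), and none in old + vehicle-treated mice; with single mice left out the number was 1 to 6. Of 8 macrophage genes only Cd163 was called, lower in both (655 to 1114, 507 to 1445 and 544 to 1735 CPM).

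Of 7 erythroid genes 3 and 2 fell, in the order vehicle-treated and AP-treated (5497 to 22165, 2027 to 11775 and 2494 to 18880 CPM), with 2 to 5 and 1 to 4 called when a mouse was left out. Of 7 skeletal muscle genes Acta1 rose in old + vehicle-treated mice (in 7 of 25 fits with a mouse left out) and none in AP-treated mice (12597 to 74260, 11476 to 89095 and 5917 to 68258 CPM). Of 10 osteoblast and osteocyte genes 2 rose and 3 fell in old + vehicle-treated mice, and 2 rose and 6 fell in old + AP-treated mice (15787 to 41515, 7857 to 40817 and 3994 to 34463 CPM). With a mouse left out, 1 to 2 rose and 2 to 3 fell in the former and 1 to 2 rose and 4 to 7 fell in the latter. In old + vehicle-treated mice Sost was called in 6 of 25 such fits and Ibsp in 13, and in old + AP-treated mice Alpl was called in 8 of 28, Pdpn in 11 and Mepe in 20. Old + vehicle-treated mouse 16 had the lowest neutrophil, T cell, mature B cell and erythroid sums of its group, together with its lowest Ighm (487 CPM) and Igkc (333 CPM). Without it the same 6 members passed against young mice.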

How the data were processed

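The authors aligned the reads to GRCm38 and deposited one table of raw counts per gene, with gene lengths; the submitters' notes name TopHat2 2.0.6 and HTSeq. The annotation release and the strand setting are not given in the sources used here, so that overlapping and antisense genes cannot be told apart. No column of the table was left unmapped. Counts were normalised by TMM and tested with edgeR 4.0.16 (R 4.3.3): filterByExpr kept 19292 of 43346 genes, and a quasi-likelihood fit of one model of all 3 groups gave Benjamini-Hochberg adjusted p-values over all tested genes. A gene was called at an adjusted p below 0.05 and a log2 fold change beyond 0.5, the thresholds in the study's methods; 95% intervals use the fit's standard error. The fit was tested on simulated counts.

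CPM are counts per 1000000 of TMM-scaled library size, and log2 CPM for correlations used a prior count of 2. Permutation tests used 100000 draws and were two-sided. Alternatives were DESeq2 1.42.0, limma 3.58.1 voom weights, other scalings and filters, and each mouse left out, the latter for genes of the lists chosen after seeing the data. Sequences and exon positions came from GENCODE M21 (GRCm38), aligned with Biopython 1.88. The members and the 13 gene lists were chosen with earlier results of these data known. All members are named; genes named from a list were its first 2 and up to 4 called genes with the largest fold change and a mean of at least 1 CPM, and from likeness 3 genes per member outside the immunoglobulin loci. Mzb1, Il21, Il6, Cd74, Pigr, Fcamr, Iglc2, Tent5c, Pou2af1, Itga4, Il7r, Ibsp, Alpl, Pdpn and Mepe were named in addition, after their values were seen. The light chain genes Iglc1, Iglc3 and Iglc4 of one list were not analysed here. The labels call the molecule genomic DNA, while the protocol and the counts are those of RNA. Results for some genes of the lists are not reported here.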

Additional observations from a re-analysis of the deposited data

How the results depend on the processing

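The numbers of members past the thresholds stayed within 1 of 6, 0 and 5 (old + vehicle-treated against young, old + AP-treated against old + vehicle-treated, old + AP-treated against young) under each alternative run. Leaving out one mouse at a time gave 5 to 6, 0 to 0 and 5 to 6. limma-voom called 6 in old + AP-treated against young mice, Ighd being the added one (-0.67, adjusted p = 0.0479). The values that changed sign were uncalled. In limma-voom these were Igha in old + vehicle-treated against young mice (-0.18) and Jchain between the old groups (-0.10). With the 4 mice of highest Ighm or Ighg2b left out, Jchain (-0.047) and Ighg2c (0.36) between the old groups did so. One mouse left out changed the sign of Igha (-0.027 to 0.29) and Ighg3 (-0.37 to 0.52) in old + vehicle-treated against young mice and of Igha in old + AP-treated against young mice (-0.15 to 0.042). Between the old groups it changed the sign of Ighg2b (-0.77 to 0.54), Ighg2c (-0.21 to 0.55) and Jchain (-0.14 to 0.18). The cause was not tested. With all mice in the fit, folds that moved by over 1.5 times were those of Ighg2b in both comparisons with young mice and of Ighg1 in old + AP-treated against either group, all smaller in limma-voom. Counted per kilobase, the median share of Igha in young mice was 44.1%, and that of Ighg2c 6.17% in young and 12.4% in old + vehicle-treated mice. Between the old groups the number of all genes called was 14, against 202 in DESeq2, 13 with DESeq2's size factors, 33 without the fold threshold, 31 in limma-voom, and 0 with no filter, with a model of 2 groups or without the 4 mice. Without the fold threshold, 3736 and 3437 genes were called in old + vehicle-treated and old + AP-treated against young mice, beside 1748 and 1655. No paired analysis was possible because each mouse has a number of its own.

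The wide intervals between the old groups come with few mice and large spread within each group, which bound what these data can show for Ighg1, Ighg2b and Ighg3. Total counts give no separate account of B cell number, antibody RNA per cell, or membrane and secreted forms.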
